A study of Mus musculus with 6 samples.

Results

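The BCL2 family decides whether a cell commits to the mitochondrial route of apoptosis. Guardian proteins (BCL-2, BCL-XL, MCL-1 and BFL-1/A1) hold the outer mitochondrial membrane intact, the effectors BAX and BAK perforate it so that cytochrome c escapes and caspases are switched on, and BH3-only proteins (BIM, BID, PUMA and NOXA among them) carry stress signals by occupying the guardians' groove or by engaging the effectors. In microglia, the resident macrophages of the brain, and in other myeloid cells, these genes are part of the control of cell survival, and MCL-1 and A1 in particular are short-lived proteins that depend on continued transcription.

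A set of 10 of the 55401 genes in the count table was followed here, chosen by matching their mouse symbols to Ensembl identifiers. They are the guardian genes Bcl2, Bcl2l1 (BCL-XL), Mcl1 and Bcl2a1b (A1), the effector genes Bax and Bak1, and the BH3-only genes Bcl2l11 (BIM), Bid, Bbc3 (PUMA) and Pmaip1 (NOXA). The libraries came from brain cells of untreated mice 6 weeks old, separated on Percoll and then enriched with magnetic beads against CD11b, which microglia share with other myeloid cells. MRL/lpr mice (3 libraries), a lupus-prone strain, carry the lpr mutation of Fas on the MRL/MpJ background, and MRL/mpj mice (3 libraries) share that background without the mutation. The comparison asks how the transcripts of the apoptosis machinery differ between microglia of the lupus strain and of its control strain. With 3 mice per strain given for the sequenced microglia and 3 libraries per strain, each library appears to be 1 mouse, although no label ties a library to an animal, and the p-values measure the spread between these libraries.

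Total counts ran from 45481609 to 49846634 per library, and each of the 10 members had at least 517 counts in each library. A single read pair appears to be worth 4 counts (1138 to 1288 genes per library had exactly 4 counts, against 320 to 415 genes with 3). The read pairs behind a count are therefore fewer than the count, and the part of counting error in the spread was not tested. Several properties of the libraries moved with strain. Mitochondrial transcripts made up 3.06% to 3.49% of MRL/lpr and 5.84% to 6.38% of MRL/mpj counts, and the gene CT010467.1 alone took 6.38% in MRL/lpr replicate 3. The methods describe female mice, yet 4 Y-linked genes summed to at least 8408 counts in every library, and Xist had 8886 to 11319 counts in MRL/lpr against 27 to 38 in MRL/mpj libraries. Each MRL/lpr library thus held both Xist and Y-linked counts, and whether it came from a single animal is not known. The part of sex in the results below was not tested. Fas itself, which the lpr allele disrupts, was counted 461, 282 and 298 times in MRL/lpr and 426, 432 and 362 times in MRL/mpj libraries (log2 fold change -0.06, edgeR adjusted p = 0.887), and a gene count does not tell mutant from intact transcripts. The 10 microglial markers (among them Cx3cr1, P2ry12 and Tmem119) summed to 22296 to 24914 CPM (counts scaled to library depth with TMM factors) in MRL/lpr and 24558 to 25316 CPM in MRL/mpj libraries, far above the other marker lists. Among them Cx3cr1 stood apart in MRL/lpr replicate 2, where it reached 132706 counts (replicates 1 and 3 had 10645 and 10334). In bulk RNA, fewer cells of a type and less RNA per cell cannot be told apart.

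Among the 10 members, 4 were higher and 0 were lower in MRL/lpr libraries at an adjusted p under 0.05 (edgeR's quasi-likelihood test, Benjamini-Hochberg adjustment over the 19554 genes tested), whereas 20.2% of all tested genes were called (11.1% higher and 9.06% lower). By edgeR's quasi-likelihood test, 1 member (Pmaip1) was lower at an unadjusted p under 0.05, and with DESeq2 it was called. The 4 higher members were the guardian genes Bcl2a1b and Mcl1, the effector gene Bak1 and the BH3-only gene Bbc3, so that each of the 3 functional classes held at least 1. Bcl2, Bcl2l1, Bax, Bid, Bcl2l11 and Pmaip1 did not pass. Only Bcl2a1b also had the absolute log2 fold change of at least 1 that the study used for its calls, which 8.34% of all tested genes met together with the adjusted p. The libraries of the strains did not overlap for 5 members, 4 higher and 1 (Pmaip1) lower, beside 39% of all tested genes (19.6% higher and 19.4% lower). The median log2 fold change of the members was 0.17, beside -0.01 over all genes tested.

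**Figure D1:**
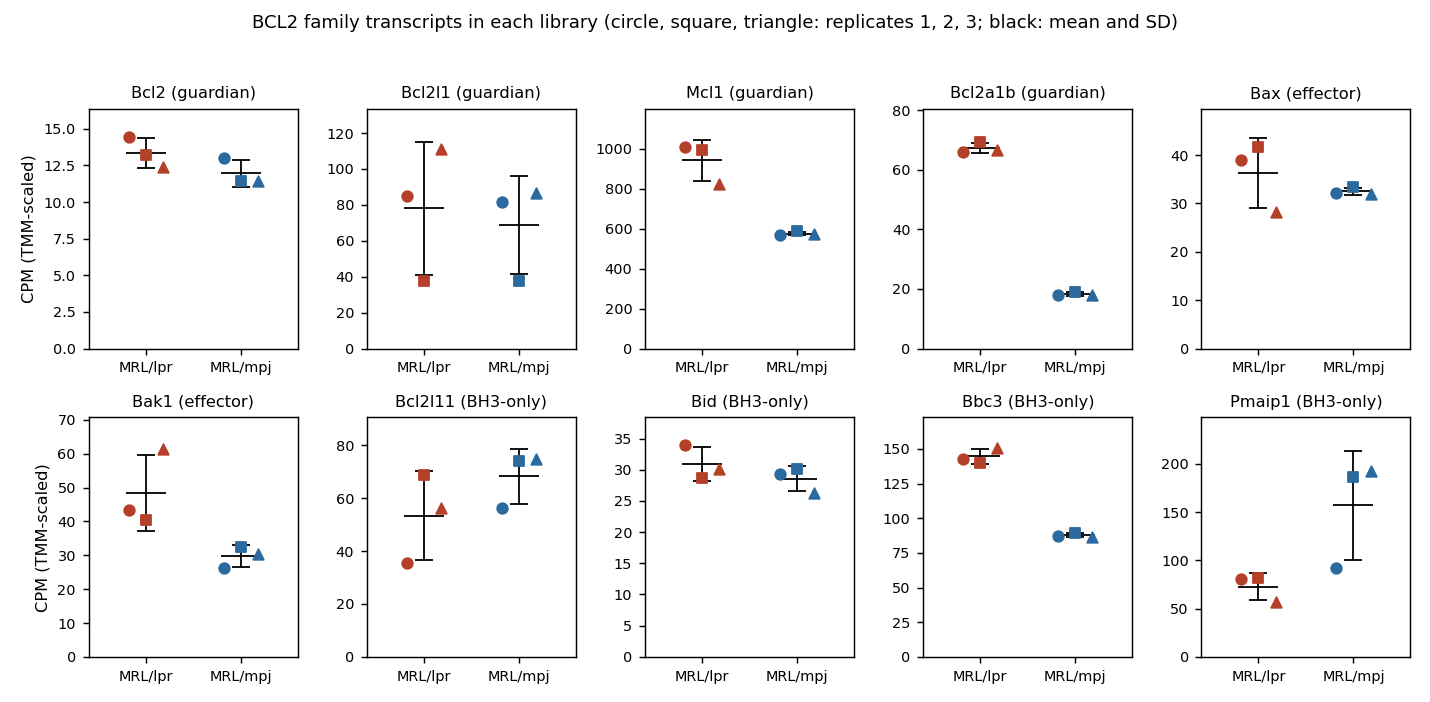
TMM-scaled CPM (y axis, from 0) of each member in each of the 6 libraries, by strain (x axis), with the mean and SD (n = 3) in black. The libraries of the strains are apart for Mcl1, Bcl2a1b, Bak1 and Bbc3 (higher in MRL/lpr) and for Pmaip1 (lower), while Bcl2l1 is low in replicate 2 of both strains.

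Among the guardian genes, Bcl2a1b had the largest difference of all members. Its level was 66.0, 69.2 and 66.6 CPM in the MRL/lpr libraries and 17.9, 19.1 and 18 CPM in the MRL/mpj libraries. The groups were far apart and each was tight. On the log2 scale it was higher by 1.87 (standard error, SE, 0.08), or 3.67-fold, and edgeR's adjusted p was 9.27e-07. Across the alternatives that tested Bcl2a1b by itself, its log2 fold change stayed between 1.75 and 1.9.

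Bcl2a1b (chr9:89199209-89207827, plus strand, GRCm38) is a member of a cluster of duplicated genes that code for nearly the same A1 protein. The coding sequences of Bcl2a1a, Bcl2a1b and Bcl2a1d are each 516 bases long in GENCODE M21 and differ at 12 positions in all. Bcl2a1b is identical to Bcl2a1a at 97.9% and to Bcl2a1d at 98.8% of the coding bases. The first 60 coding bases, which hold 6 of the 12 variable positions, are printed below to show how little separates the copies, with the variable positions in capitals. A read from a stretch that copies share letter for letter cannot be placed on 1 copy. Of all 150-base windows (the read length) in the Bcl2a1b transcript, 14.2% occur letter for letter in Bcl2a1a or Bcl2a1d, and the shares were 28.2% for Bcl2a1a and 30.3% for Bcl2a1d.
Bcl2a1a (chr9:88957051-88957110, plus strand): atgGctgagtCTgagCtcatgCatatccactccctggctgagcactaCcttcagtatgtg
Bcl2a1b (chr9:89199360-89199419, plus strand): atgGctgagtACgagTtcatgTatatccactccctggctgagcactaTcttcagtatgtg
Bcl2a1d (chr9:88731660-88731719, minus strand): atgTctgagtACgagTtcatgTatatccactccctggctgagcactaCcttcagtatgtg

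The copies did not move alike. Counts of Bcl2a1a were 1125, 1157 and 907 in MRL/lpr against 138, 129 and 157 in MRL/mpj libraries, a log2 fold change of 3.08 (SE 0.14, edgeR quasi-likelihood adjusted p = 1.01e-06), or 8.47-fold. Bcl2a1d had 830, 557 and 744 counts against 855, 829 and 812, so its groups were close together. Its log2 fold change was -0.05 (SE 0.16, edgeR quasi-likelihood adjusted p = 0.886), and it turned to 0.12 without MRL/lpr replicate 2. Differences in fold change between the copies were not tested.

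Of the counts on all 3 copies, Bcl2a1d held 43.5% ± 1.06 (SD, n = 3) in the MRL/mpj libraries and 14.8% ± 3.12 (SD, n = 3) in the MRL/lpr libraries, while Bcl2a1a held 7.4% ± 0.762 and 22% ± 1.42. Because reads may be divided between the copies, their counts were also added up as a single gene, a step chosen after the data were seen. The sums were 5058, 4973 and 4434 counts against 1914, 1913 and 1907, with a log2 fold change of 1.51 (SE 0.07, edgeR quasi-likelihood adjusted p = 1.33e-06). A gene annotated over the same stretch as Bcl2a1b, Gm29094, had at most 26 counts in any library.

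**Figure D2:**
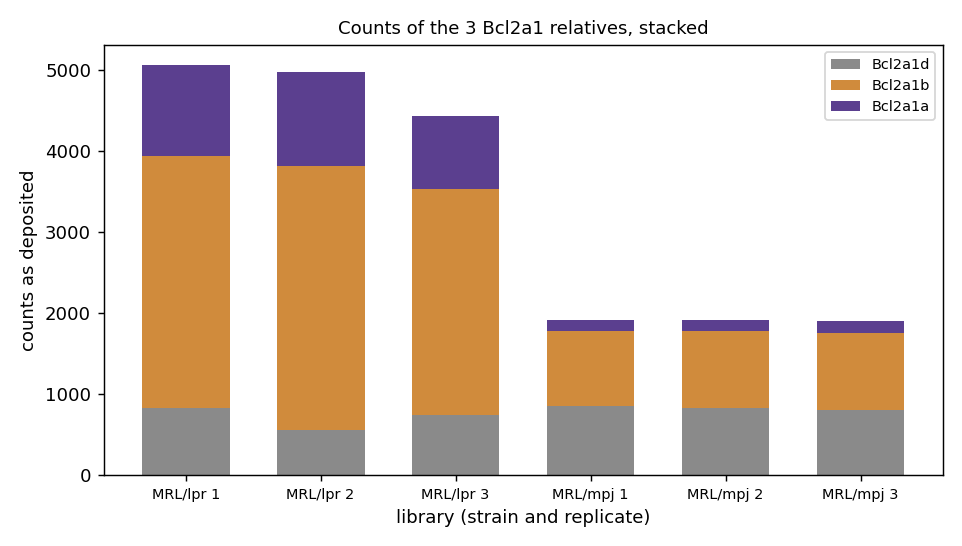
Deposited counts (y axis) of Bcl2a1d, Bcl2a1b and Bcl2a1a stacked for each of the 6 libraries (x axis). The Bcl2a1d segment is alike in height in both strains (557 to 855 counts), whereas the segments of Bcl2a1b and Bcl2a1a are taller in each MRL/lpr library.

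The promoter windows of the copies (250 bases before to 50 after the start, RefSeq on GRCm38.p6) were also closely alike, with 99.2% identity over 256 aligned columns between Bcl2a1a and Bcl2a1b, 96.5% over 256 columns between Bcl2a1b and Bcl2a1d, and 96% over 300 columns between Bcl2a1a and Bcl2a1d. The stretch below is shown as an example of a difference between these windows, chosen after the fold changes were seen and 1 of several that set Bcl2a1d apart. Its part in the levels of the copies was not tested. The hexamer GAGGAA, in capitals, stands 2 times in a row in Bcl2a1a and Bcl2a1b and 1 time in Bcl2a1d. GAGGAA is a core of sites for ETS factors such as PU.1, the lineage factor of macrophages, and was present on either strand in 28.3% of 32851 promoter windows, so a match alone is common.
Bcl2a1a (chr9:88956799-88956841, plus strand): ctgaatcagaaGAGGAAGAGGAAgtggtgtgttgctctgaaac
Bcl2a1b (chr9:89199108-89199150, plus strand): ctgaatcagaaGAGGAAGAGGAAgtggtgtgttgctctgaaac
Bcl2a1d (chr9:88731929-88731965, minus strand): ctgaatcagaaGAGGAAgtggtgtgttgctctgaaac

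Over the members, 14 promoter windows for 9 genes were searched on both strands. GAGGAA was found in 4 of them (Bcl2, Bcl2a1b, Bid and Bak1), beside 28.3% of all promoter windows. TTCNNNGAA, the site of STAT factors that interferons activate, was found in 0, beside 8.3% of all promoter windows. With 14 windows, neither count sets the members apart from other genes.

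Mcl1 (chromosome 3), a guardian on which neutrophils depend, had 1010, 996 and 824 CPM in the MRL/lpr libraries and 568, 587 and 574 CPM in the MRL/mpj libraries. Every MRL/lpr library lay above every MRL/mpj library, with replicate 3 the lowest of its strain. The difference was 0.71 on the log2 scale (SE 0.08, edgeR quasi-likelihood adjusted p = 0.000267), or 1.64-fold, and it ran from 0.66 to 0.80 when single libraries were left out.

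Bcl2, the founding member of the family, had 14.4, 13.2 and 12.4 CPM in the MRL/lpr libraries and 13, 11.4 and 11.4 CPM in the MRL/mpj libraries, and the groups overlapped. Its log2 fold change of 0.16 (standard error 0.13) did not pass (edgeR adjusted p = 0.453).

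Bcl2l1, which codes for BCL-XL, had 85.1, 37.8 and 111 CPM in the MRL/lpr libraries and 81.8, 37.4 and 86.7 CPM in the MRL/mpj libraries. Replicate 2 of each strain was at less than 0.5 of the other libraries, and the strains overlapped throughout. Its spread between replicates, a coefficient of variation of 47.6% in MRL/lpr and 39.6% in MRL/mpj libraries, was wider than that of 98.9% and 98.4% of the 9298 genes with a mean of at least 10 CPM. The log2 fold change was 0.18 with a standard error of 0.54 (edgeR quasi-likelihood adjusted p = 0.867). Its sign turned when MRL/lpr replicate 3 (-0.16) or MRL/mpj replicate 2 (-0.11) was left out, so these libraries do not resolve a direction for Bcl2l1.

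For the effectors, Bak1 had 43.5, 40.6 and 61.4 CPM in the MRL/lpr libraries and 26.3, 32.5 and 30.5 CPM in the MRL/mpj libraries. The groups did not overlap, which held for 39% of all tested genes, and MRL/lpr replicate 3 was the highest. The log2 fold change was 0.70 (SE 0.16, edgeR quasi-likelihood adjusted p = 0.0132), or 1.63-fold. It was 0.62 with an adjusted p of 0.0589 without MRL/mpj replicate 1, and 0.50 without MRL/lpr replicate 3, where it still passed. Bak1 shares 437 and 177 exon bases with 2 annotated copies of Ggnbp1 on the opposite strand. The first had 196 to 318 counts in MRL/lpr and 643 to 758 in MRL/mpj libraries, the second 255 to 436 and 90 to 317, against 1352 to 2565 counts for Bak1, and the sources used here do not say whether counting used strand.

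Bax, the other effector, had 38.9, 41.7 and 28.1 CPM in the MRL/lpr libraries and 32.2, 33.4 and 31.9 CPM in the MRL/mpj libraries. MRL/lpr replicate 3 was the lowest of all 6 libraries, and the other MRL/lpr libraries were the highest. The log2 fold change was 0.16 (SE 0.14, edgeR quasi-likelihood adjusted p = 0.492). Without MRL/lpr replicate 3 it was 0.32 and passed (adjusted p = 0.0249). MRL/lpr replicate 3 therefore stood at the opposite end of its strain for the effector genes, highest for Bak1 and lowest for Bax.

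Effectors and BH3-only proteins share the BH3 domain, a short helix that is the contact surface within the family. The codons of its core (a leucine, 3 further residues, a glycine or alanine, then an aspartate) occurred exactly 1 time in the coding sequence of 8 members in GENCODE M21, guardians included. The 18 bases are printed to show this shared element, with the codons of the fixed residues in capitals. The pattern had 0 matches in the Bcl2a1b coding sequence, and Pmaip1 was not searched.
Bcl2 (chr1:106712584-106712601, minus strand): CTCcgccgggctGGGGAT
Bcl2l1 (chr2:152829706-152829723, minus strand): CTGagagaggcaGGCGAT
Mcl1 (chr3:95659436-95659453, plus strand): CTGcggcgcgtgGGCGAC
Bax (chr7:45466006-45466023, minus strand): CTCcggcgaattGGAGAT
Bak1 (chr17:27022540-27022557, minus strand): CTTgctctcatcGGAGAT
Bcl2l11 (chr2:128147150-128147167, plus strand): CTGcggcggatcGGAGAC
Bid (chr6:120897298-120897315, minus strand): CTCgcccaaataGGCGAT
Bbc3 (chr7:16313773-16313790, plus strand): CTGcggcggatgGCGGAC

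Of the BH3-only genes, Bbc3 rose and Pmaip1 was at lower values, although both are known targets of p53. Bbc3, which codes for PUMA, had 143, 140 and 151 CPM in the MRL/lpr libraries and 87.5, 89.3 and 86.4 CPM in the MRL/mpj libraries. It was among the steadiest members, with a coefficient of variation of 3.91% and 1.65%. The strains differed by a log2 fold change of 0.72 (SE 0.07, edgeR quasi-likelihood adjusted p = 6.88e-05), or 1.65-fold, and it ran from 0.69 to 0.74 when single libraries were left out.

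Pmaip1, which codes for NOXA, the BH3-only partner of MCL-1 and A1, had 80.2, 81.5 and 56.6 CPM in the MRL/lpr libraries and 92.0, 187 and 193 CPM in the MRL/mpj libraries. The groups did not overlap, but MRL/mpj replicate 1 was close to the MRL/lpr libraries. The log2 fold change was -1.11 (SE 0.33, edgeR quasi-likelihood adjusted p = 0.0806). Without MRL/mpj replicate 1 it was -1.38 with an adjusted p of 0.000782, and with all libraries it passed with DESeq2 (adjusted p = 0.00693), with dispersions that were not robust (0.0227) and with limma on FPKM (0.0364). Whether Pmaip1 is called thus depended on MRL/mpj replicate 1 and on the tool.

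Bcl2l11, which codes for BIM, had 35.4, 68.7 and 56.3 CPM in the MRL/lpr libraries and 56.3, 73.9 and 74.7 CPM in the MRL/mpj libraries. MRL/lpr replicate 1 was the lowest, and the groups overlapped. The log2 fold change was -0.35 (SE 0.25, edgeR quasi-likelihood adjusted p = 0.406), and -0.12 without MRL/lpr replicate 1.

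Bid, which links death receptors such as Fas to mitochondria once caspase-8 has cut the protein, had 33.9, 28.7 and 30.1 CPM in the MRL/lpr libraries and 29.3, 30.1 and 26.3 CPM in the MRL/mpj libraries. The groups overlapped, with a log2 fold change of 0.11 (SE 0.10, edgeR quasi-likelihood adjusted p = 0.502), which was -0.01 with scaling by library size only. Bid shares 628 exon bases with Bcl2l13 on the opposite strand, which had 1723 to 2201 counts per library.

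**Figure D3:**
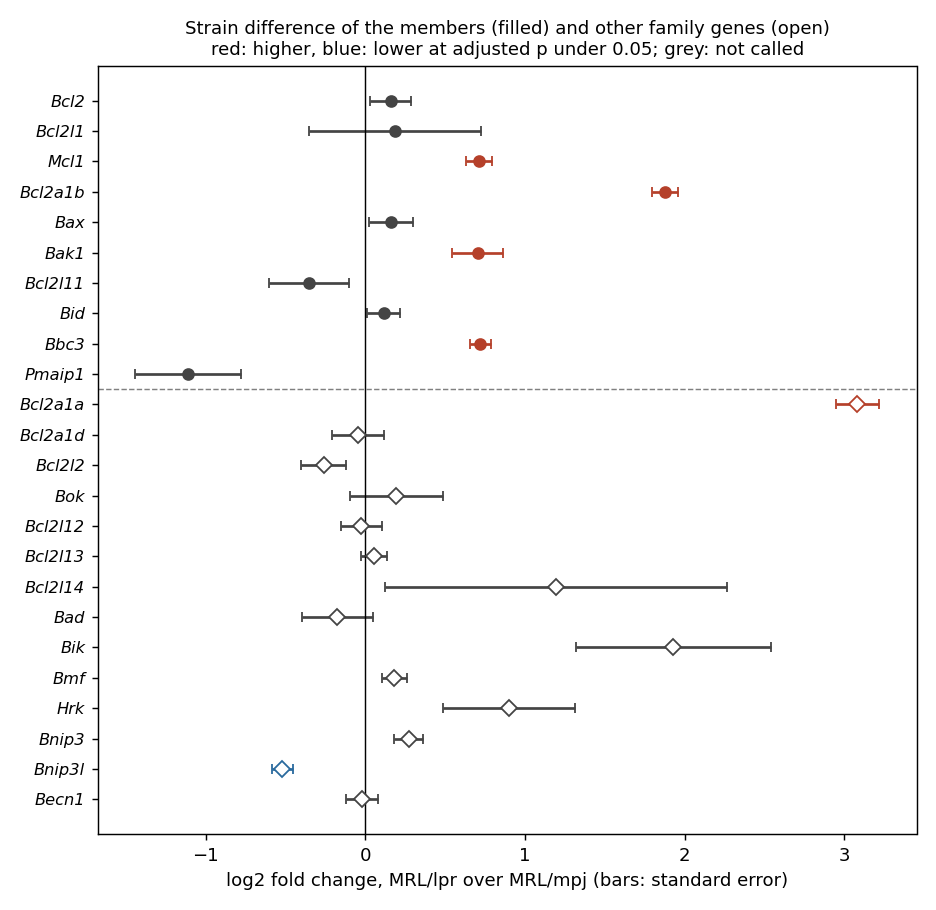
Log2 fold change of MRL/lpr over MRL/mpj (x axis) with its standard error for the 10 members (filled circles) and other tested BCL2 family genes (open diamonds), coloured where the adjusted p was under 0.05. Bcl2a1b (1.87) and Bcl2a1a (3.08) lie farthest to the right among called genes, and Bcl2l1 (0.18 with a standard error of 0.54) has the widest bar of the members.

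Levels of different genes were compared per gene length, on the deposited FPKM (fragments per kilobase of gene, scaled to library depth). Mcl1 had the highest level of the members in each library, at 237 ± 33.0 FPKM (SD, n = 3) in MRL/lpr and 157 ± 2.72 FPKM in MRL/mpj, and Bcl2 the lowest, at 1.25 ± 0.131 and 1.21 ± 0.0924 FPKM. In the MRL/mpj libraries Pmaip1 came next after Mcl1 (53.5 ± 19.3 FPKM), then Bbc3 (38.4 ± 0.650), Bcl2a1b (20.9 ± 0.748), Bax (19.2 ± 0.463), Bcl2l1 (13.9 ± 5.51), Bak1 (11.5 ± 1.23), Bcl2l11 (7.91 ± 1.21) and Bid (7.48 ± 0.520). Within this order the libraries of Pmaip1 and Bbc3 overlapped, as did those of Bcl2l1 and Bak1 and those of Bcl2l11 and Bid, so the order within these pairs is not resolved. Bcl2l1 also lay below Bcl2l11 and Bid in MRL/mpj replicate 2, so its place above them is not resolved either.

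In the MRL/lpr libraries the second place belonged to Bcl2a1b (70.5 ± 3.31 FPKM, SD, n = 3), above Bbc3 (58.2 ± 0.667) and Pmaip1 (22.9 ± 5.04) in each library. Below them, Pmaip1, Bax (19.7 ± 4.44), Bak1 (17.1 ± 3.40), Bcl2l1 (14.4 ± 6.57), Bid (7.44 ± 0.751) and Bcl2l11 (5.69 ± 1.81) each overlapped with the next in line. Bcl2a1b thus stood above Bbc3 and Pmaip1 in MRL/lpr and below both in MRL/mpj libraries. The same rank for each of the 10 members was obtained with CPM divided by exon length.

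**Figure D4:**
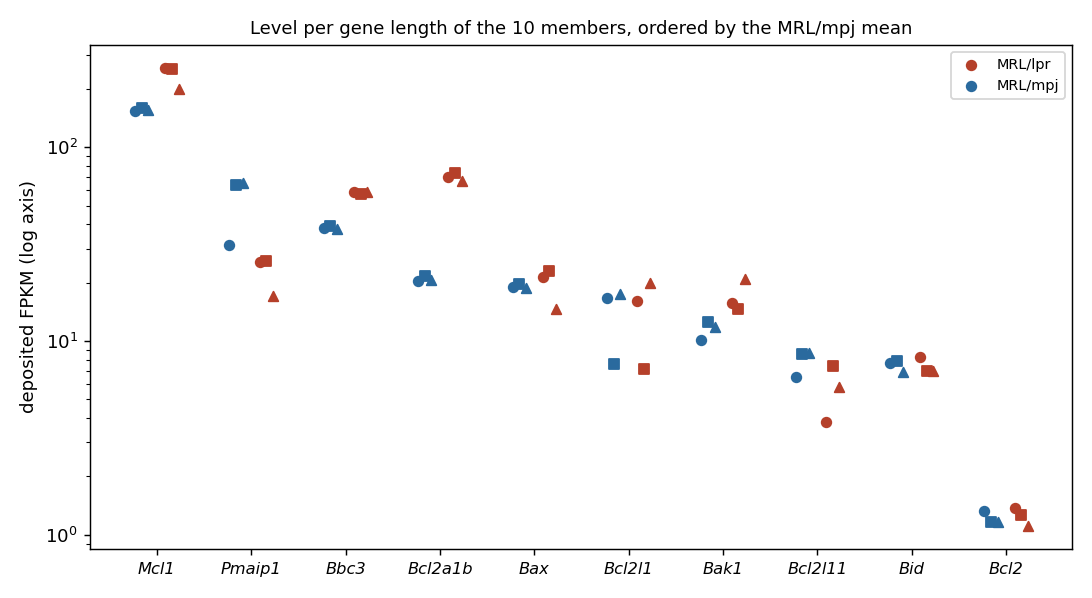
Deposited FPKM (log y axis) of the 10 members in each library, ordered by their MRL/mpj mean (x axis), with replicates 1, 2 and 3 as circle, square and triangle. Mcl1 is highest and Bcl2 lowest in every library, and Bcl2a1b and Pmaip1 exchange places between the strains.

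As a share of the summed FPKM of the 4 guardian genes, Mcl1 made up 81.3% ± 2.29 (SD, n = 3) in MRL/mpj and 73.1% ± 3.38 in MRL/lpr libraries, and Bcl2a1b 10.8% ± 0.516 and 21.9% ± 1.52. Bcl2 contributed 0.629% ± 0.0489 and 0.386% ± 0.0107. The ratio of Bax to Bcl2, often quoted as an index of apoptotic poise, was 3.98 ± 0.12 in MRL/mpj and 3.96 ± 0.23 in MRL/lpr libraries on the log2 scale, and the strains overlapped. The ratio of Bcl2l11 to its guardian Mcl1 was -4.32 ± 0.21 in MRL/mpj and -5.42 ± 0.56 in MRL/lpr libraries on the log2 scale, without overlap. Of its parts, Mcl1 was called higher in MRL/lpr libraries and Bcl2l11 was not called. The log2 ratio of Bid to Bcl2l1 was -0.80 ± 0.75 in MRL/mpj and -0.83 ± 0.75 in MRL/lpr libraries, and the strains overlapped. These ratios were not tested.

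Other genes of the family and of the pathway were read from the same fit. Of the guardian relatives, Bcl2l2 (BCL-W) had a log2 fold change of -0.26 (edgeR quasi-likelihood adjusted p = 0.249), and Bcl2l10 had 0 counts in each library. None of the 4 tested effector-like genes (Bok, Bcl2l12, Bcl2l13 and Bcl2l14) passed edgeR's test at an adjusted or an unadjusted p under 0.05, and Bcl2l15 had too few counts. Of 7 further BH3 genes, 0 rose and 1 fell: Bnip3l, a mitophagy receptor, fell by 0.52 in log2 units (SE 0.07, edgeR adjusted p = 0.000503). The libraries of the strains did not overlap, with higher values in MRL/lpr, for 4 of these genes that were not called (Bik, Bmf, Hrk and Bnip3), beside 19.6% of all tested genes. Bik, a BH3-only gene, had 109, 64 and 49 counts in MRL/lpr and 6, 23 and 36 in MRL/mpj libraries (log2 fold change 1.93, SE 0.61, edgeR adjusted p = 0.0542), and Bnip3, a relative of Bnip3l, had a log2 fold change of 0.27 (edgeR adjusted p = 0.0704). Bmf, a BH3-only gene tied to loss of attachment, had 111 ± 7.61 CPM (SD, n = 3) in MRL/lpr and 97.5 ± 3.15 CPM in MRL/mpj libraries, and edgeR's adjusted p was 0.132.

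Downstream of the mitochondria, Parp1, a DNA repair enzyme that is cleaved during apoptosis, rose by 0.66 on the log2 scale (edgeR quasi-likelihood adjusted p = 0.000122). The apoptosome genes Casp9, Apaf1 and Cycs did not pass, with log2 fold changes of -0.22, 0.04 and -0.06. Of 8 genes around the inhibitor of apoptosis proteins, Birc3 (cIAP2), an NF-kB target, rose by 0.96 and Birc5 (survivin) by 2.07 on the log2 scale (edgeR quasi-likelihood adjusted p = 0.000463 and 0.000699), and 0 were lower. Birc5 is also a mitotic gene, and all 15 mitosis genes listed were higher in MRL/lpr libraries, with a median log2 fold change of 1.74. Of 11 genes of the mitochondrial outer membrane and its dynamics, among them Vdac1, Vdac2 and Opa1, 0 were called, and their log2 fold changes lay between -0.15 and 0.21.

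Upstream, 5 of 12 tested transcription factors that act on the family were higher and 1 was lower. Jun rose by 0.74, E2f1 by 0.88, Nfkb1 by 0.40, Rela by 0.38 and Stat3 by 0.30, while Mitf, which drives Bcl2 in pigment cells, fell by 0.47 on the log2 scale. Trp53 itself had a log2 fold change of 0.01 (edgeR quasi-likelihood adjusted p = 0.976). Of 11 tested p53 targets outside the members, 3 were higher and 2 were lower. Cdkn1a rose by 1.36, Tnfrsf10b by 0.76 and Mdm2 by 0.40, whereas Perp fell by 1.46 and Gadd45a by 0.62 on the log2 scale. Among 9 genes of protein turnover, Ube2c rose by 1.76, Trib1 by 0.94 and Mdm2 by 0.40, and Btrc, a ubiquitin ligase subunit that acts on MCL-1 and on the inhibitors of NF-kB, fell by 1.05 on the log2 scale. The MCL-1 ligase gene Huwe1 and the deubiquitinase gene Usp9x had log2 fold changes of -0.07 and 0.02 and did not pass. With all of these lists pooled, 30 of 90 tested genes were higher and 5 were lower, beside 11.1% and 9.06% of all genes tested, and the mitosis genes made up 15 of the 30.

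Genes of other cell types moved with strain as well, and A1, BCL-2 and MCL-1 are also made by neutrophils and lymphocytes. The 7 neutrophil markers summed to 569 to 646 CPM in MRL/lpr and 441 to 502 CPM in MRL/mpj libraries, with 3 of 7 higher and 0 lower. The 7 T cell markers summed to 18.8 to 24.4 CPM against 6.38 to 6.99 CPM (5 higher, 0 lower), the 6 NK cell markers to 11.6 to 11.9 CPM against 3.12 to 4.16 CPM (3 higher, 0 lower), and the 5 plasma cell markers to 25.5 to 28.5 CPM against 12.8 to 13.6 CPM (2 higher, 0 lower). Most of the plasma cell difference lay in Jchain, with a mean of 15.6 CPM in MRL/lpr and 1.23 CPM in MRL/mpj libraries. Mzb1, also called higher, had 0.943 CPM against 0 CPM. Sdc1 (4.12 against 4.23 CPM), Tnfrsf17 (5.14 against 6.75 CPM) and Derl3 (1.17 against 1.03 CPM) were not called, so this list did not move as 1. The 7 B cell markers summed to 14.6 to 15.4 CPM against 11.4 to 15 CPM, with 0 of 6 tested called. The 6 monocyte markers summed to 67.5 to 78.7 CPM against 77.5 to 84.3 CPM, with 3 higher and 1 lower. Summed levels were lower in MRL/lpr libraries, without overlap, for 6 border macrophage markers (50.6 to 52.1 CPM against 54.9 to 63.4 CPM, 0 higher and 2 lower), 6 neuron markers (21.2 to 23.6 CPM against 36.4 to 40.4 CPM, 0 higher and 2 lower), 6 astrocyte markers (107 to 153 CPM against 183 to 189 CPM, 0 higher and 1 lower) and 6 oligodendrocyte markers (130 to 153 CPM against 164 to 195 CPM, 0 higher and 2 lower). The 6 endothelial markers summed to 1436 to 1614 CPM against 1348 to 1389 CPM, with 1 higher and 1 lower. The 5 choroid plexus markers summed to 337 to 348 CPM against 1019 to 1096 CPM, with 0 higher and 4 lower. No marker of these lists was at 0 in all libraries. Their part in the differences of Bcl2a1b, Mcl1, Bak1 and Bbc3 was not tested. Over the cell type lists, the ratio of the strains' mean summed CPM (MRL/lpr over MRL/mpj) ran from 0.325 (choroid plexus) to 3.33 (T cell). It was 1.27 for the neutrophil markers. Such ratios do not measure how much of a member's counts these cells gave.

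**Figure D5:**
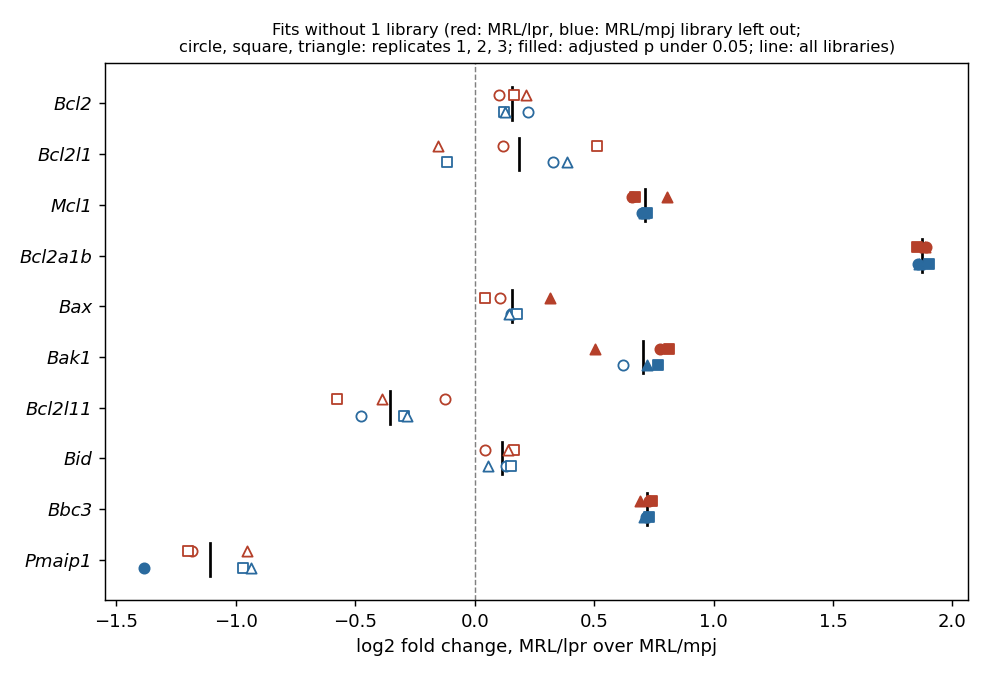
Log2 fold change of MRL/lpr over MRL/mpj (x axis) of each member in the 6 fits that left out 1 library each, coloured by the strain of the library left out, with the value from all libraries as a black line and filled symbols where the adjusted p was under 0.05. Mcl1, Bcl2a1b and Bbc3 keep filled symbols in all 6 fits, Bak1 in 5, and Pmaip1 and Bax have 1 filled symbol each.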

How the data were processed

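CD11b-selected brain cells of MRL/lpr and MRL/mpj mice were sequenced as paired reads of 150 bases, 3 libraries per strain. The labels describe removal of ribosomal RNA and a stranded kit, and the methods describe purified mRNA. The submitters' processing notes name cutadapt 1.9.3, HISAT2 2.0.4, Cufflinks, Cuffdiff 2.2.1 and GRCm38, and the methods also name DESeq2. The counting tool and strand setting are not given in the sources used here. The authors deposited raw, unscaled counts of each gene, together with FPKM. Symbols came from GENCODE M21 (55141 of 55401 identifiers matched), and 1 listed gene symbol matched no single identifier.

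Counts were filtered with filterByExpr (minimum count 10, minimum total 15), scaled by TMM and tested without covariates by edgeR 4.0.16 (quasi-likelihood, robust dispersions, R 4.3.3). The common biological coefficient of variation was 0.26. Alternatives used DESeq2 1.42.0, limma 3.58.1 on log2(FPKM + 0.1), other scalings and filters, dispersions that are not robust, counts divided by 4, glmTreat, a block on replicate number and each library left out. Steps were tested on simulated data with 1 dispersion for all genes. There 200 of 19213 genes were changed, and edgeR's test recovered 26% of 2-fold and 88% of 3-fold changes. In the data 20.2% of tested genes were called and dispersions differ between genes, so these rates do not carry over to the members. A gene that did not pass may still differ between the strains. With 3 libraries against 3, an exact permutation test cannot give a p under 0.1. The members and lists were chosen with earlier results of these data known. All members were named, with Fas, Bcl2a1a and Bcl2a1d, the pathway lists of 5 or fewer genes, and up to 4 called genes per direction in other pathway lists. Cell type lists are given as sums and counts. Other genes, Stat3 among them, were named after their values were seen. Some genes of the lists are not reported here.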

Additional observations from a re-analysis of the deposited data

How the results depend on the processing

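Of 340 values recomputed under alternatives, 315 kept their direction and their side of the threshold or stayed within 1.5 times the count. The 4 higher members were called under each alternative with all libraries that tested for any difference, and glmTreat, which tests against a log2 fold change of 1, called 1 member. No member was lower in the test reported above, but 1 member (Pmaip1) was lower, and 2 called members changed by at least 1 in log2 units, with DESeq2, with dispersions that were not robust and with limma on FPKM. When single libraries were left out, 3 to 5 members were higher, 0 to 1 lower and 1 to 2 past the fold minimum, while 1177 (without MRL/mpj replicate 1) to 1971 of all genes were lower. Scaling by library size only moved the median log2 fold change of all genes from -0.01 to -0.13, with 1634 genes higher and 2790 lower, beside 2178 and 1772 with TMM, and 9 genes of the other lists lower in place of 5. With limma on FPKM, 8 of these were lower. Bid turned to -0.01 with either of these settings (-0.0083 and -0.0087). When single libraries were left out, Bcl2l1 ran from -0.16 to 0.51, Bcl2a1d from -0.14 to 0.12 and Fas from -0.28 to 0.089. Bcl2l1 turned to -0.16 without MRL/lpr replicate 3 and to -0.11 without MRL/mpj replicate 2, Bcl2a1d to 0.12 without MRL/lpr replicate 2, and Fas to 0.089 without MRL/lpr replicate 2 and to 0.0013 without MRL/mpj replicate 2. The cause was not tested.

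Deviations of same-numbered libraries from their strain means had correlations between -0.06 and -0.03. These correlations cover all tested genes at once, and deviations shared in single genes were not tested. With the replicate number as a block, 4 members were higher and 0 lower, and 1754 genes were higher and 1309 lower. In that fit edgeR's adjusted p was 0.409 for Bcl2l1 and 0.0810 for Bcl2l11, beside 0.867 and 0.406 without the block. No library correlated best with its own number. With counts divided by 4, 4 members were still called higher and 0 lower, but low genes such as Bik and Bcl2l14 rest on few read pairs.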
